A study of Mus musculus with 18 samples.

Results

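Interferon beta (Ifnb1), the 2 chains of its receptor (Ifnar1, Ifnar2), the 2 kinases bound to those chains (Jak1, Tyk2) and 3 genes of the pathway that switches interferon beta on (Tbk1, Irf3, Irf5) were followed across 18 RNA sequencing libraries. The 8 genes were found by symbol in every library, among 23284 mouse symbols in 12 libraries and 25432 human symbols in 6. They were chosen on earlier results of these data, namely the low Ifnb1 level of IL-33-treated Th2 cells, so their values in that comparison are given as a description, without a test. The libraries form 6 groups of 3. Memory T helper 2 (Th2) cells of BALB/c mice with a high level of ST2, the receptor for IL-33, had been kept for 3 days in IL-2 alone or in IL-2 plus IL-33. Eosinophils had been kept for 3 days without or with amphiregulin, an epidermal growth factor family ligand. Whole lung came from BALB/c wild-type mice and from mice called dGATA and knock-out in the labels, which do not spell that name out, and both had received OVA. The labels name mouse for the eosinophils, but their tables list human genes and are treated here as human. The sources used here do not say if the libraries of a group stem from different mice, cultures or donors, and a p-value below speaks only for the spread among these libraries.

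Interferon beta is a secreted antiviral cytokine of the type I interferon family. Sensors of foreign or misplaced nucleic acid activate the kinase TBK1, which phosphorylates IRF3, and IRF3, IRF5 or IRF7 together with NF-kB then switch on the interferon genes. The secreted protein binds IFNAR1 and IFNAR2, whose kinases TYK2 and JAK1 phosphorylate STAT transcription factors, and these act with IRF9 on a large set of interferon response genes. Plasmacytoid dendritic cells, macrophages and infected epithelial cells are well-known sources, whereas T cells are better known as responders.

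The promoter of Ifnb1 is shown because this gene had the largest difference among the members, together with stretches of the promoters of Ifna4 and Ifna2, 2 interferon alpha genes at or near 0 FPKM in the IL-33 libraries. All are RefSeq sequences on build GRCm38.p6, written 5′ to 3′ on the strand of the gene. The Ifnb1 sequence holds the 250 bases before the RefSeq start, chr4:88522795-88523044 on the minus strand. The stretch for Ifna4 is chr4:88841671-88841730 on the plus strand, and that for Ifna2 is chr4:88683910-88683969 on the minus strand, each 60 bases long. Capitals mark matches on either strand to AANNGAAA, a core that interferon regulatory factors bind, and to GGGANNTTC, a form of the NF-kB site.
Ifnb1: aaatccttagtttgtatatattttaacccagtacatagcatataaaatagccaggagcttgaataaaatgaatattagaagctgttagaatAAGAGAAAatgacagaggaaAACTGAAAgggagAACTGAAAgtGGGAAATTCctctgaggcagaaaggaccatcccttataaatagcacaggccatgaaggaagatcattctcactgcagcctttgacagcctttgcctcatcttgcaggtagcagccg
Ifna4: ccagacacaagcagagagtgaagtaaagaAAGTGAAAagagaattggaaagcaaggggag
Ifna2: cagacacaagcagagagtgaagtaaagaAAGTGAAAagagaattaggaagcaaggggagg

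In the Ifnb1 promoter, AANNGAAA occurred 3 times, beginning 159, 139 and 126 bases before the start, and GGGANNTTC occurred 1 time, beginning 116 bases before it, with no overlap between the matches. AANNGAAA occurred 3 times in the full promoter window of Ifna4 and 2 times in that of Ifna2, where the printed stretches hold 1 each. Among all 32851 promoter entries of the same length, 21.31% held at least 1 AANNGAAA match and 0.85% held at least 3, while GGGANNTTC occurred in 3.23%. The promoters of the other 7 members had 0 matches to both motifs in this window. A match describes letters in the sequence and does not show that a factor was bound in these cells.

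Ifnb1 was detected in Th2 cells kept in IL-2 alone and was close to 0 everywhere else. Its level was 4.637, 4.502 and 3.965 FPKM, a fragment density scaled for transcript length and library size, in the 3 IL-2 libraries. With IL-33 it was 0.0991, 0.107 and 0 FPKM. The groups did not overlap, the means being 4.37 ± 0.356 and 0.0688 ± 0.0597 FPKM (SD, n = 3 each). Ifnb1 lies at chr4:88522025-88522794, a protein-coding gene on the minus strand, and the value covers the whole gene. On the log2(FPKM + 1) scale used for all differences below, which understates those of low genes, IL-33 minus IL-2 alone was -2.33 with a standard error of 0.10. Ifnb1 passed the filter of at least 1 FPKM in 3 of the 6 libraries only through the group where it was high.

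The files give no counts, but the depth behind these Ifnb1 values can be seen in their steps. After correction for relative depth, the 6 values were whole multiples of the smallest, namely 35, 35 and 20 steps in IL-2 and 1, 1 and 0 steps with IL-33, each within 0.01 of a whole number. If a step is 1 sequenced fragment, 90 fragments stood against 2, over a summed relative depth of 2.70 and 3.31. The depth-corrected ratio was then 55.3. It rests on 2 fragments with IL-33 and is a description only, because Ifnb1 was chosen on this contrast. In the IL-33 library at 0, a limit of 3 fragments would correspond to 0.537 FPKM, well under the lowest IL-2 library.

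In the lung, Ifnb1 was listed at 0 in 6 of 6 libraries. With depth carried over from the Th2 libraries by the same steps, 3 fragments would correspond to 0.173 to 0.297 FPKM there, so a level like that of the IL-2 cells would have been seen and a trace would not. IFNB1 was also listed at 0 in 6 of 6 eosinophil libraries, whose depth is not tied to that of the mouse libraries. No fold is given against these groups.

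**Figure D1:**
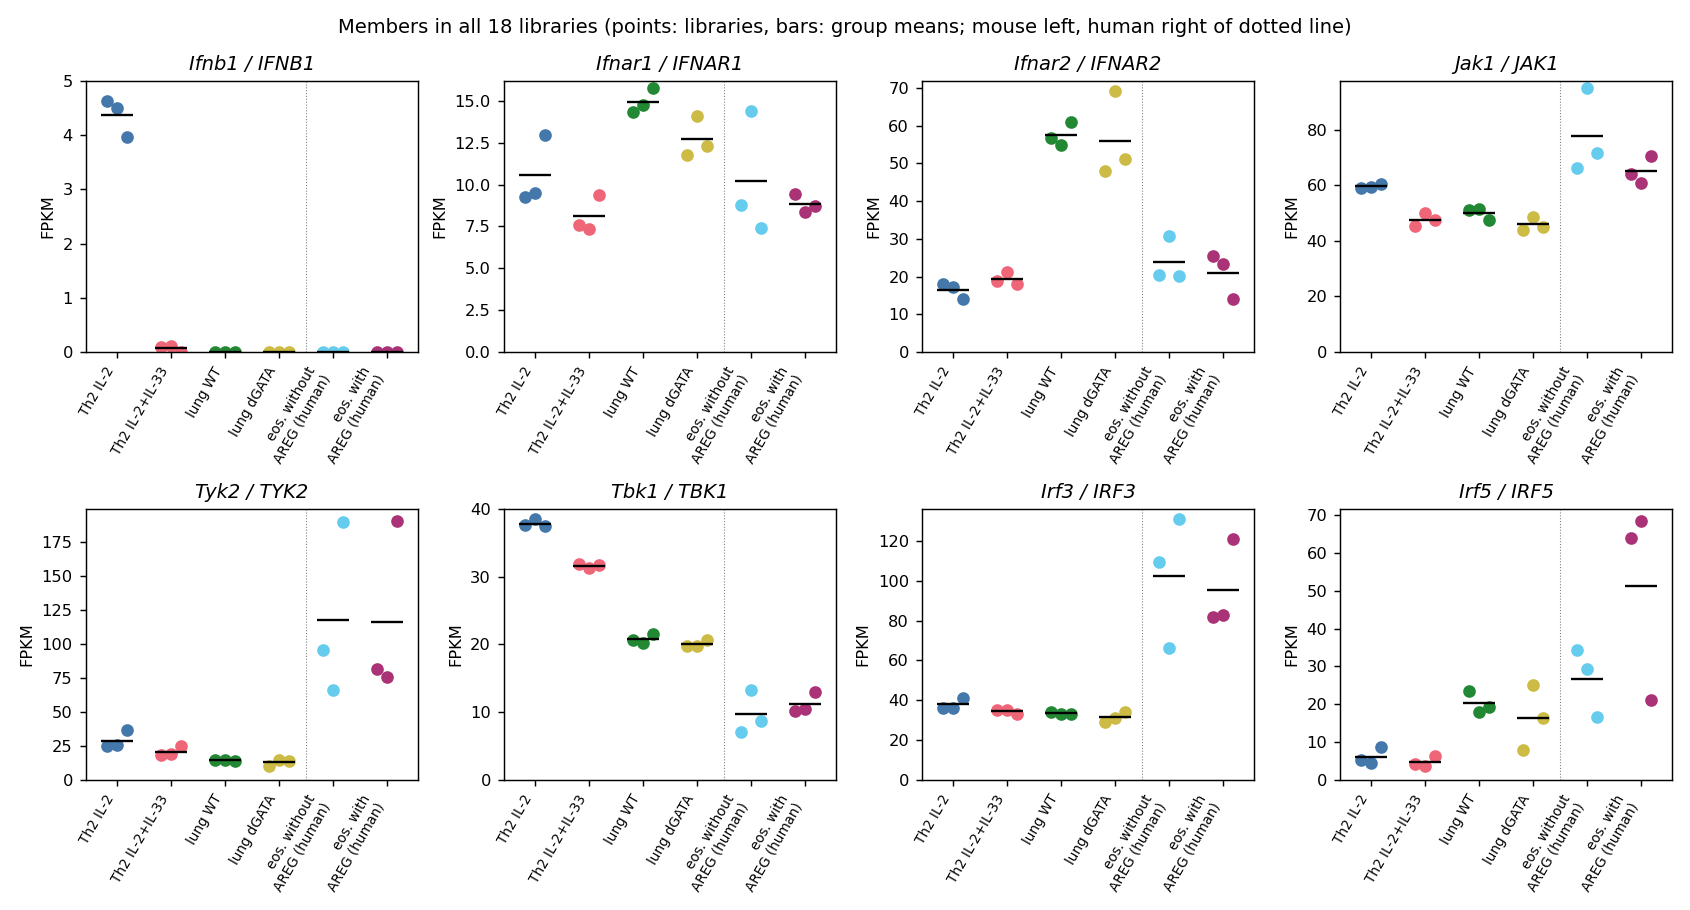
Level in FPKM (vertical axes, linear, from 0) of the 8 members in each library of the 6 groups, with points for libraries and bars for group means. Ifnb1 stands at 3.965 to 4.637 FPKM in the IL-2 Th2 libraries and at or near 0 in all others.

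The interferon alpha genes showed the same split. They are near-identical copies, 12 of them listed here within 327.3 kb of Ifnb1 on chromosome 4, so the level of any single copy is uncertain and their sum is the safer value. Summed over the 12 genes, the IL-2 libraries held 15.9, 22.6 and 26.8 FPKM. The IL-33 libraries held 0.128, 0 and 0 FPKM, with 1 gene above 0 in the first of them. Ifna2 stood at 5.408, 7.703 and 10.96 FPKM in IL-2 and Ifna4 at 5.86, 7.73 and 8.17 FPKM. Of 17 further type I and III interferon genes in the tables, 4 passed the filter, Ifna1, Ifna2, Ifna4 and Ifna5, all 4 through the IL-2 group alone, so their direction was fixed by the filter and no test is given. In lung, the sum over the alpha genes was 0 in all 3 wild-type libraries and 0, 0 and 0.431 FPKM in dGATA. In eosinophils, 17 of 19 listed type I and III genes were at 0 in all 6 libraries.

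**Figure D2:**
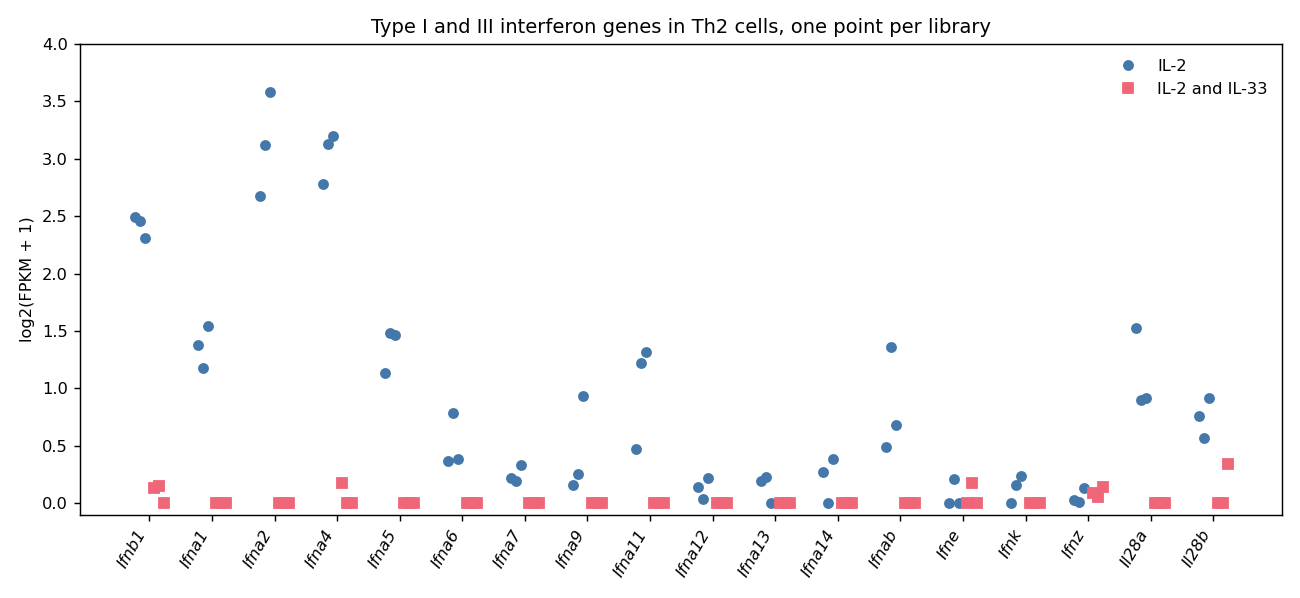
Level on the log2(FPKM + 1) scale (vertical axis) of Ifnb1 and 17 further type I and III interferon genes in the 6 Th2 libraries, circles for IL-2 and squares for IL-2 and IL-33. Most alpha genes were above 0 in the IL-2 libraries and at 0 with IL-33, whereas Ifne and Ifnz did not split in this way.

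Markers of cells known for making interferon were looked at in the same Th2 libraries. Of 6 plasmacytoid dendritic cell markers, Siglech, which defines these cells in mouse, and Klk1 were at 0 in all 6 libraries, and Ccr9 and Tcf4 were under 0.5 FPKM. Summed over the 6 markers, the level was 8.12 to 10.2 FPKM in IL-2 and 6.16 to 8.94 with IL-33, mostly from Runx2, which T cells also express, while Pacsin1 stood at 3.12 ± 0.137 and 0.520 ± 0.190 FPKM. The macrophage genes Marco, C1qa and Msr1 and the dendritic cell genes Clec9a and Cd209a were at 0 in all 6. Of the other conventional dendritic cell markers, Flt3 and Zbtb46 stayed under 1 FPKM. Xcr1 had means of 4.61 FPKM in IL-2 and 5.52 with IL-33, and Batf3 of 1.38 and 5.71 FPKM. Summed conventional dendritic cell markers were 5.83 to 7.52 FPKM in IL-2 and 10.9 to 12.2 with IL-33. Summed macrophage markers reached 7.43 to 11.2 FPKM in IL-2 and 4.94 to 8.89 with IL-33. Most of this sum came from Cd68, with means of 6.36 and 5.65 FPKM, and Apoe, with means of 3.37 and 1.78 FPKM. The part of macrophages and dendritic cells in the Ifnb1 result was not tested. All 7 T cell markers listed were above 57 FPKM in every library, and 6 of 7 Th2 markers had a mean of at least 1 FPKM in both groups, with Gpr44 under 0.1 FPKM. These are bulk samples, so fewer cells that express a gene and less RNA per cell cannot be told apart.

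The receptor chains were present in every library of every group, and in Th2 cells their mean differences had opposite signs. Ifnar1, the chain that carries TYK2, stood at 9.25, 9.50 and 12.9 FPKM in IL-2 and at 7.58, 7.33 and 9.40 FPKM with IL-33. The groups overlapped, the log2 difference being -0.34 with a standard error of 0.15. Ifnar2, the chain that binds the ligand most tightly and carries JAK1, stood at 18.1, 17.1 and 13.9 FPKM in IL-2 and at 18.9, 21.3 and 17.95 FPKM with IL-33. It was the single member with a higher mean in IL-33, by 0.23 on the log2 scale with a standard error of 0.12, and its groups also overlapped.

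The receptor kinases Jak1 and Tyk2 both had lower means with IL-33. For Jak1 the values were 58.8, 59.4 and 60.4 FPKM in IL-2 and 45.38, 49.99 and 47.41 FPKM with IL-33. Every IL-33 library lay below every IL-2 library, and the log2 difference was -0.32 with a standard error of 0.07. Tyk2 stood at 24.5, 25.3 and 36.5 FPKM in IL-2 and at 18.5, 19.0 and 24.7 FPKM with IL-33, a log2 difference of -0.44 with a standard error of 0.18. Its groups overlapped by a narrow margin, 24.5 against 24.7 FPKM.

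Of the induction genes, Tbk1 had the tightest groups. This kinase stood at 37.6, 38.5 and 37.4 FPKM in IL-2 and at 31.8, 31.3 and 31.8 FPKM with IL-33, a log2 difference of -0.25 with a standard error of 0.07. The IL-33 libraries were all lower, and groups did not overlap in either direction for 56.7% of all genes tested. Irf3, the transcription factor that TBK1 activates, stood at 36.3, 36.2 and 41.0 FPKM in IL-2 and at 35.3, 34.9 and 32.8 FPKM with IL-33. These groups did not overlap either, although 36.2 and 35.3 FPKM are close, and the log2 difference of -0.14 had a standard error of 0.08. Irf5, best known from myeloid and B cells, was low at 5.16, 4.39 and 8.57 FPKM in IL-2 and at 4.23, 3.72 and 6.37 FPKM with IL-33, overlapping groups that differed by -0.27 with a standard error of 0.25.

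The scale of the values and the libraries behind them bear on these differences. The median gene of this comparison had a log2 difference of -0.106 in the FPKM the authors gave, against -0.0119 after rescaling to a common sum and -0.0128 after median-of-ratios scaling. Relative to the median gene the differences were -2.22 for Ifnb1, -0.34 for Tyk2, -0.23 for Ifnar1, -0.21 for Jak1, -0.16 for Irf5, -0.14 for Tbk1, -0.03 for Irf3 and 0.34 for Ifnar2, and no member changed direction under either scaling. Libraries 5 (IL-2) and 6 (IL-33), whose titles spell ST2 differently from the other 4 and whose relative depth was lowest at 0.668 and 0.740, held the highest Ifnar1, Tyk2 and Irf5 values of their groups. Within libraries 1 to 4 the ratio of IL-33 to IL-2 was 0.795 for Ifnar1, 0.753 for Tyk2 and 0.832 for Irf5, and between libraries 5 and 6 it was 0.727, 0.678 and 0.743, so all 3 were lower with IL-33 within each set. The part of depth in the higher values of libraries 5 and 6 was not tested.

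Over all 10296 genes tested, 42.1% were called, 16.3% higher and 25.7% lower, and the 4 members whose groups did not overlap, Ifnb1, Jak1, Tbk1 and Irf3, stand beside 56.7% of all genes. Because the members were chosen with this contrast known, nothing is read from those counts. Higher calls made up 38.8% of calls on the authors' scale, 55.6% once libraries were set to an equal total and 51.5% with median-of-ratios scaling.

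**Figure D3:**
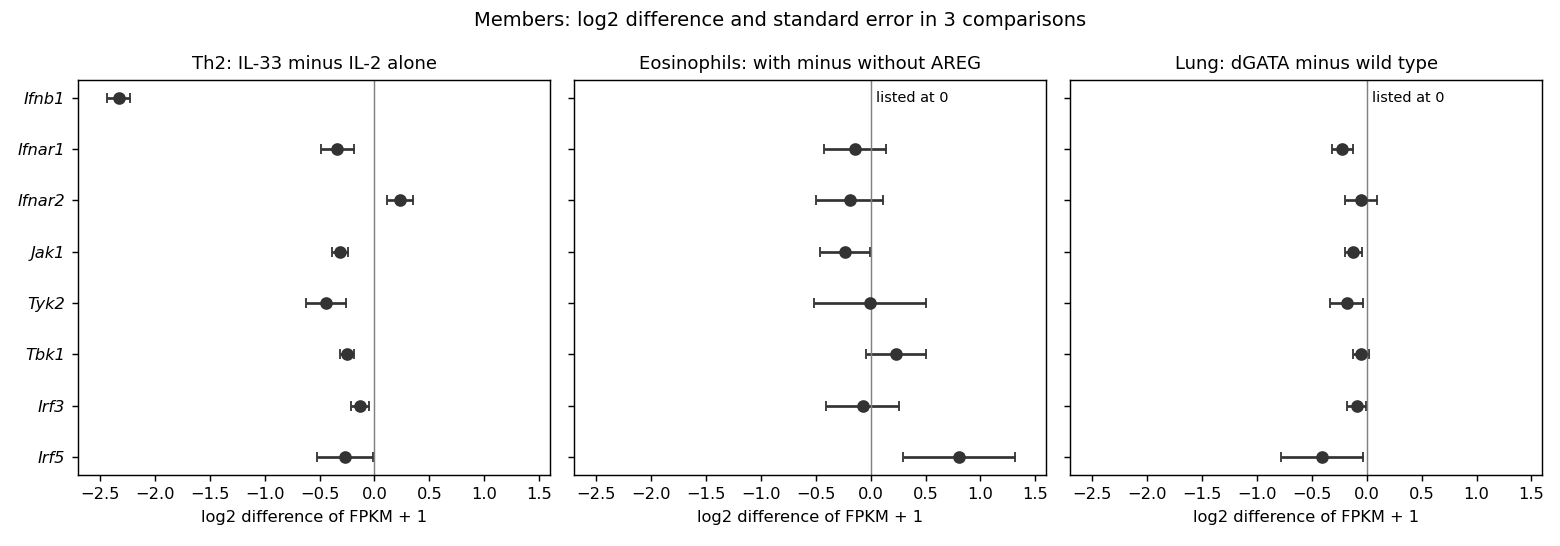
Log2 difference of FPKM + 1 (horizontal axes) for each member in the 3 comparisons, with bars for 1 standard error; mouse symbols stand for the human genes in the eosinophil panel. Ifnb1 lies at -2.33 in Th2 cells, and each detected member has its widest standard error in eosinophils.

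Around the members, the rest of the pathway was examined with 7 further lists of named genes and a list of interferon response genes. Leaving the response genes out, 69 genes passed the filter in Th2 cells, of which 11 were called higher and 33 lower with IL-33. Among all genes tested, 16.3% were called higher and 25.7% lower. All 20 interferon response genes were lower, with a median log2 difference of -3.42 against -0.106 for all genes. Ifna1, Ifna2, Ifna4, Ifna5, Tlr7, Ifit3 and Oasl2 passed the filter through the IL-2 group alone, so these counts include genes that could not have been higher. The lists were drawn up with earlier results of these data known, and list genes were largely named by smallest p. These counts and the adjusted p-values of list genes in Th2 cells are therefore no independent support for the pattern of Ifnb1.

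In the list named nucleic acid sensors and adaptors, 11 of 15 were called lower and 1, Tlr4, higher, with a median of -0.507. Among all genes, 25.7% were called lower and 16.3% higher. Tlr4 is not itself a nucleic acid sensor, and not every gene of the list acts through TBK1. The RNA sensor gene Ddx58, which encodes RIG-I, stood at 41.7 ± 3.54 FPKM in IL-2 and 9.67 ± 0.589 with IL-33 (limma adjusted p = 2.31e-05). Its relative Dhx58, which encodes LGP2, stood at 64.7 ± 9.33 and 6.43 ± 1.46 FPKM. Zbp1, a sensor of Z-form nucleic acid, fell from 374 ± 21.0 to 98.8 ± 14.2 FPKM. Tlr7, the endosomal receptor for single-stranded RNA, was 2.58, 3.30 and 2.12 FPKM in IL-2 and 0.142, 0.102 and 0 FPKM with IL-33, and passed the filter through the IL-2 group alone.

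Of the kinases and scaffolds around TBK1, 3 of 14 were called higher and 5 lower, beside 16.3% and 25.7% of all genes, with a median of -0.217. Azi2 and Tbkbp1, adaptors that bind TBK1, fell from 53.8 ± 2.71 to 32.3 ± 0.635 FPKM and from 7.48 ± 0.778 to 2.16 ± 0.966 FPKM. Tank, another adaptor of TBK1, rose from 23.65 ± 1.43 to 34.96 ± 3.30 FPKM, and the ubiquitin ligase gene Traf6 rose from 23.1 ± 1.99 to 30.6 ± 0.674 FPKM. Of the other IRF family genes, 5 of 8 were called lower and 0 higher, beside 25.7% and 16.3% of all genes, with a median of -0.622. Irf7, the factor that drives interferon alpha genes and is itself an interferon response gene, stood at 229, 254 and 245 FPKM in IL-2 and at 40.1, 35.6 and 49.6 FPKM with IL-33. Irf8 fell from 77.8 ± 48.3 to 10.1 ± 2.68 FPKM, the IL-2 library numbered 5 being highest at 133.5 FPKM, Irf9 from 59.6 ± 2.59 to 33.5 ± 2.93 and Irf4 from 330 ± 12.5 to 204 ± 20.4 FPKM. The log2 difference of Irf7 was -2.52, beside -0.14 and -0.27 for the members Irf3 and Irf5.

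Downstream of the receptor, Stat2 fell from 62.7 ± 7.61 to 17.9 ± 4.07 FPKM, while Jak3, the kinase of the common gamma chain receptors, rose from 66.2 ± 6.89 to 107 ± 4.52 FPKM. Of 9 further Janus kinase and STAT genes, 1 was called higher and 4 lower, beside 16.3% and 25.7% of all genes, with a median of -0.547. Of the negative regulators, 3 of 15 were called higher and 4 lower with a median of -0.0878, shares near the 16.3% and 25.7% of all genes. Usp18, which binds IFNAR2 and dampens its signal, was 151, 164 and 200 FPKM in IL-2 and 12.01, 7.575 and 18.09 FPKM with IL-33 (limma adjusted p = 1.35e-04). Socs3, an inhibitor of cytokine receptor kinases, was 37.8, 38.8 and 18.2 FPKM in IL-2 and 115, 132 and 101 FPKM with IL-33, with groups that did not overlap (limma adjusted p = 0.00243). The phosphatase gene Ptpn6 fell from 74.1 ± 23.1 to 26.2 ± 1.68 FPKM and the ubiquitin ligase gene Trim21 from 24.9 ± 0.551 to 8.32 ± 0.774 FPKM. Response genes fell as well, among them Rsad2, which encodes viperin, from 60.1 ± 7.13 to 1.03 ± 0.233 FPKM and the chemokine gene Cxcl10 from 29.2 ± 5.08 to 1.38 ± 0.0815 FPKM. Oasl2 stood at 45.8 ± 4.33 FPKM in IL-2 and 0.496 ± 0.0566 with IL-33, and Ifit3 at 32.4 ± 3.80 and 0.178 ± 0.123 FPKM, both passing the filter through the IL-2 group alone.

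**Figure D4:**
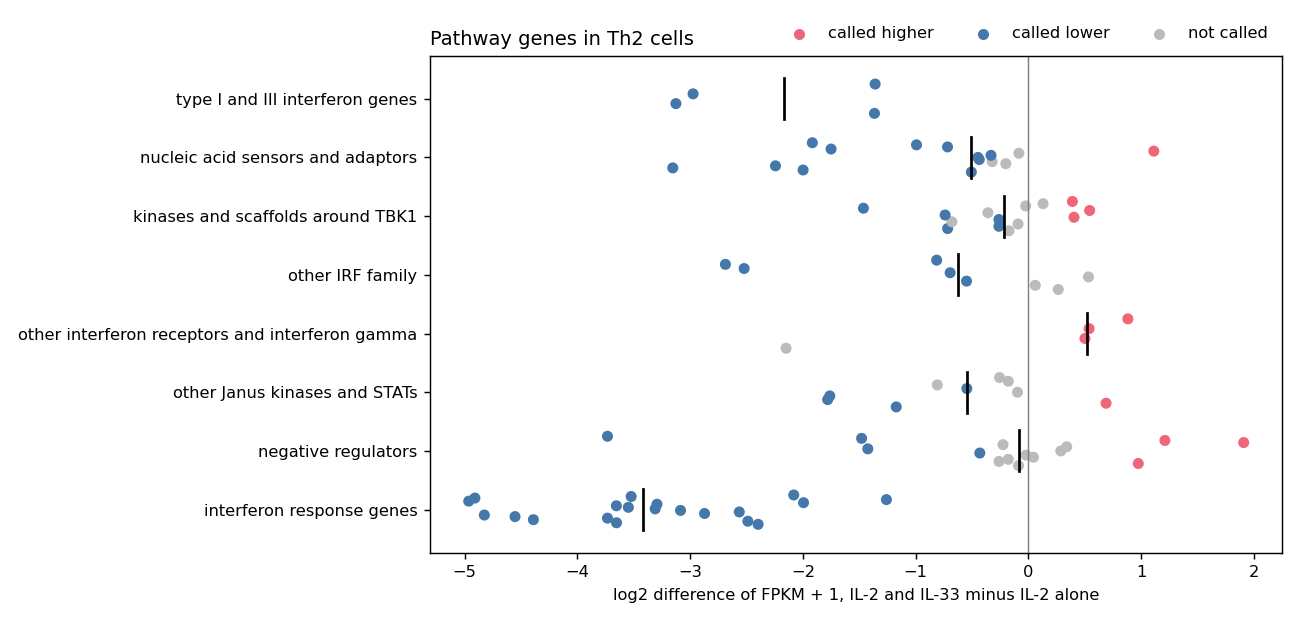
Log2 difference of FPKM + 1, IL-2 and IL-33 minus IL-2 alone (horizontal axis), of every pathway gene tested in Th2 cells, by list, with vertical bars for list medians and colours for genes called higher, lower or not. The response genes lie furthest to the left with a median of -3.42, and the other interferon receptors are the list whose median is above 0, at 0.52.

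Receptor chains of other interferon types, Il10rb, Ifngr1 and Ifngr2, rose where Ifnar1 had a lower mean. Il28ra, the specific chain of the interferon lambda receptor, was at 0 in all 3 IL-2 libraries, averaged 0.0275 FPKM with IL-33 and was not tested. Ifnar2 at chr16:91372783-91405587, Il10rb at chr16:91406235-91425834, Ifnar1 at chr16:91485215-91510522 and Ifngr2 at chr16:91547094-91564007 lie next to each other within 191.2 kb, and Ifnar2 ends 79.6 kb before Ifnar1 starts. Il10rb, a chain shared by the interferon lambda and IL-10 receptors, rose from 7.82, 8.52 and 8.37 FPKM in IL-2 to 16.6, 17.5 and 14.1 FPKM with IL-33 (limma adjusted p = 8.08e-04). Ifngr2 and Ifngr1, the chains of the interferon gamma receptor, rose from 12.1 ± 2.97 to 17.7 ± 1.89 FPKM and from 11.8 ± 0.718 to 17.2 ± 2.32 FPKM (limma adjusted p = 0.0484 and 0.012). Ifng itself, a T cell cytokine, was 32.71, 34.95 and 198.1 FPKM in IL-2 and 7.43, 5.20 and 51.9 FPKM with IL-33, the high values again being those of libraries 5 and 6, and it did not pass the test (limma adjusted p = 0.113). In lung the 3 higher genes of this cluster stood at 57.6, 51.5 and 33.0 FPKM in wild type and Ifnar1 at 14.96 FPKM, the lowest of the 4.

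In eosinophils the 7 detected members did not pass the test in either direction, and the interval of each difference was wide. IRF5 came closest. It stood at 34.4, 29.4 and 16.5 FPKM without amphiregulin and at 64.1, 68.5 and 21.1 FPKM with it, in the order of the sample numbers 2, 3 and 4. The value with amphiregulin was higher within 3 of 3 numbers, by 1.86, 2.33 and 1.28 times, while the groups as a whole overlapped. The log2 difference was 0.80 with a 95% interval of -0.41 to 2.02 (limma adjusted p = 0.999), and with the number as a block it had an interval of 0.31 to 1.29 (unadjusted p = 0.00628, adjusted p = 0.175). In alternatives added after the data had been seen, leaving out both libraries of number 2, 3 or 4 gave blocked differences of 0.76, 0.61 and 1.04 (limma adjusted p = 0.576, 0.323 and 0.0108). Without number 4, the setting in which IRF5 passed the test, 812 of 13088 genes tested were called in all. Over all 12635 genes tested, 0.206% were called without the block and 1.12% with it.

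Markers of other cells were present in the eosinophil libraries and varied among them. Summed neutrophil markers ran from 6753 to 20840 FPKM over the 6 libraries, mostly from S100A8 and S100A9. Summed eosinophil markers ran from 1120 to 4732 FPKM, mostly from CLC. These sums cover different genes and do not rank the cell types. Summed macrophage markers were 323 to 2428 FPKM without amphiregulin and 186 to 1056 with it, and summed conventional dendritic cell markers were 1.58 to 5.92 and 12.4 to 83.4 FPKM. The higher dendritic cell sum came mostly from CD209, with means of 0.376 and 32.4 FPKM, and BATF3, with 0.964 and 15.9 FPKM. FLT3 had means of 0.827 and 2.37 FPKM and ZBTB46 of 1.99 and 2.86 FPKM. XCR1 and CLEC9A had means of at most 0.251 FPKM. The part of other cell types in the IRF5 values was not tested. IRF4, outside the member list, was 2.77, 3.69 and 0.381 FPKM without and 32.5, 30.9 and 1.16 FPKM with amphiregulin (limma adjusted p = 0.999, or 0.105 with the block), low in both libraries of number 4 as IRF5 was.

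The receptor chains and their kinases were detected in every eosinophil library, and TYK2 differed more between sample numbers than between treatments. TYK2 was 95.8, 66.1 and 190.4 FPKM without amphiregulin and 82.0, 75.9 and 190.8 FPKM with it, so both libraries of number 4 stood far above the rest. The blocked log2 difference of TYK2 had a 95% interval of -0.42 to 0.40, against -1.23 to 1.21 without the block. The intervals that follow for the other members are without the block. JAK1 stood at 66.3, 94.9 and 71.6 FPKM without and 63.9, 60.8 and 70.5 FPKM with amphiregulin, lower within 3 of 3 numbers, with an interval of -0.78 to 0.31. IFNAR1 had means of 10.2 ± 3.69 and 8.83 ± 0.540 FPKM and IFNAR2 of 23.8 ± 6.03 and 20.9 ± 6.04 FPKM, with intervals of -0.81 to 0.52 and -0.91 to 0.53. Means of IRF3 were 102 ± 33.0 and 95.2 ± 22.4 FPKM, with an interval of -0.86 to 0.71. TBK1 had means of 9.65 ± 3.16 and 11.18 ± 1.503 FPKM, with an interval of -0.43 to 0.88. After rescaling to a common sum, the differences of IFNAR1, IFNAR2, IRF3 and TYK2 changed sign to 0.06, 0.01, 0.14 and 0.20.

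Of the further pathway genes, 67 were tested in eosinophils and 0 were called, nor any of 17 response genes. With the block 1 was called, SOCS1, an inhibitor of JAK1 and TYK2, at 23.1, 23.5 and 32.9 FPKM without and 55.9, 52.5 and 130 FPKM with amphiregulin (limma adjusted p = 0.0317 with the block, 0.987 without). The blocked call was lost without the libraries of number 3. Its values with amphiregulin were all above those without, as was true of 3.6% of all genes tested, and the same held for SOCS3 at 6.584, 5.616 and 10.04 FPKM against 14.76, 14.96 and 21.06 FPKM (limma adjusted p = 0.0518 with the block). RSAD2 stood at 3.65 ± 0.433 FPKM without and 8.76 ± 1.61 with amphiregulin, and HERC6 at 2.71 ± 1.01 and 1.32 ± 0.476 FPKM, so response genes did not all lie on the same side, and neither passed the test (limma adjusted p = 0.654 and 0.999, or 0.0844 and 0.298 with the block).

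**Figure D5:**
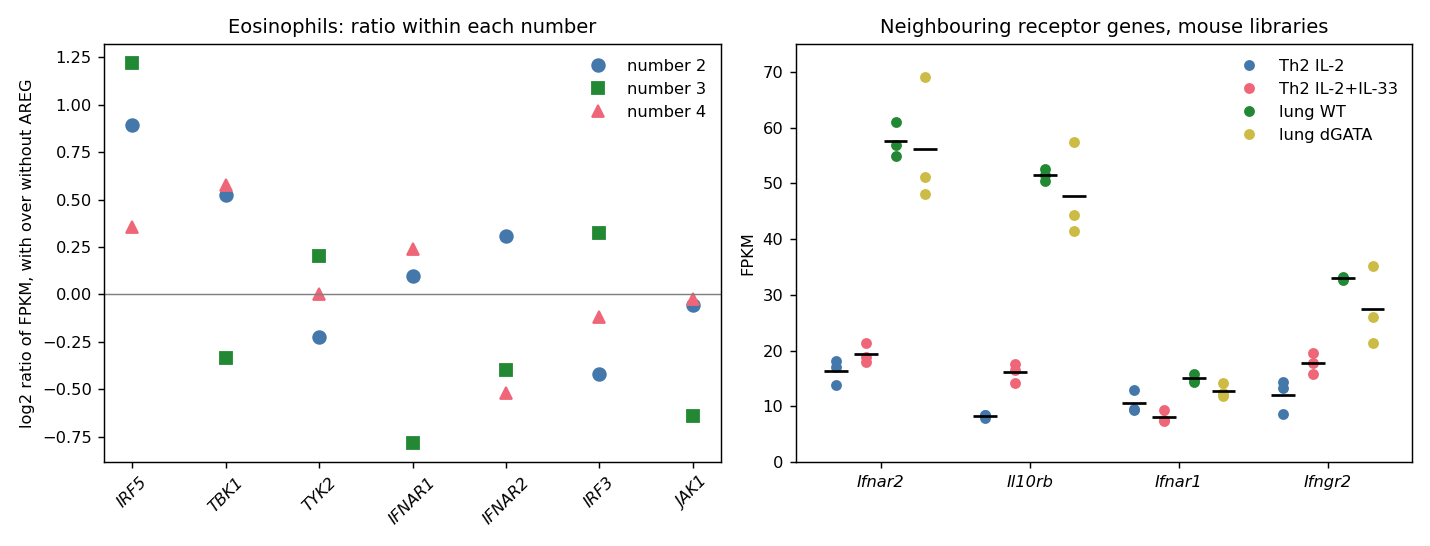
Left, log2 ratio of FPKM with over without amphiregulin (vertical axis) within each eosinophil sample number for the 7 detected members. Right, level in FPKM of the neighbouring receptor genes in the 12 mouse libraries, with bars for group means; IRF5 ratios are above 0 in 3 of 3 numbers, and Ifnar1 is the lowest of the 4 receptor genes in lung.

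In lung the comparison asked how tissue of OVA-treated dGATA mice differed from wild type, and the members did not pass the test. Ifnar1 was the member with the smallest p. It was 14.4, 14.8 and 15.8 FPKM in wild type and 11.8, 14.1 and 12.3 FPKM in dGATA, so each dGATA library lay below each wild-type library. The log2 difference was -0.22 with a 95% interval of -0.45 to 0.00 (limma unadjusted p = 0.0533, adjusted p = 0.726). Across all 13727 genes tested, 0.0947% were called, and 9.86% had dGATA libraries all below the wild-type ones, so the order alone is common.

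Irf5 was the most variable member in lung, at 23.4, 18.1 and 19.2 FPKM in wild type and 7.92, 25.1 and 16.3 FPKM in dGATA. The dGATA library numbered 1 was far below the others, and the difference of -0.41 had a 95% interval of -1.31 to 0.50 (limma adjusted p = 0.895). Without that library the difference was 0.01. Summed macrophage markers were lowest in a dGATA library at 587 FPKM, against 1292 to 1502 in wild type, and their part in the Irf5 values was not tested. The remaining members had intervals of -0.41 to 0.30 for Ifnar2, -0.55 to 0.18 for Tyk2, -0.32 to 0.07 for Jak1, -0.30 to 0.12 for Irf3 and -0.22 to 0.12 for Tbk1 (limma adjusted p from 0.827 to 0.967). Ifnar2 changed sign without the dGATA library numbered 1 (0.05) and without that numbered 3 (0.0023), and its means were 57.6 ± 3.11 and 56.1 ± 11.4 FPKM.

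Of the further pathway genes, 70 were tested in lung and 0 were called, nor any of 20 response genes. Oas1a, which encodes a sensor of double-stranded RNA, stood at 0.135, 0.138 and 0.0356 FPKM in wild type and at 4.29, 13.9 and 21.2 FPKM in dGATA, passing the filter through the dGATA group alone, so no test is given. Irf7 was 16.1 to 19.3 FPKM in wild type and 10.6, 17.9 and 61.4 FPKM in dGATA, the last being the library where 4 alpha genes were above 0. Stat6, the STAT of IL-4 and IL-13 signals, had means of 47.3 ± 2.27 and 38.8 ± 2.78 FPKM (limma adjusted p = 0.626).

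Set side by side across the mouse groups, which come from separate tables and were not tested against each other, the members fell into different orders. Ifnar2 was highest in lung, 57.6 and 56.1 FPKM against 19.4 and 16.4 in Th2 cells, with no overlap between the tissues. Tbk1 and Tyk2 ran the other way, Tbk1 from 37.8 and 31.6 FPKM in Th2 cells to 20.8 and 20.1 in lung and Tyk2 from 28.8 and 20.8 to 14.4 and 12.8. Neighbouring groups in these orders overlapped between wild-type and dGATA lung for Ifnar2, Tbk1 and Tyk2. The Th2 groups overlapped for Ifnar2 and Tyk2 but not for Tbk1. Irf3 was the flattest member, at 37.9, 34.3, 33.4 and 31.4 FPKM, and its 3 lower groups overlapped with their neighbours. Jak1 was highest in IL-2 Th2 cells at 59.5 ± 0.779 FPKM, and its 3 lower groups, wild-type lung, IL-33 Th2 cells and dGATA lung, overlapped at 49.9, 47.6 and 45.8 FPKM. Irf5 was higher in lung, 20.2 and 16.4 FPKM, than in Th2 cells, 6.04 and 4.77, although the dGATA library numbered 1 lay within the Th2 range. Between the 2 receptor chains, which FPKM sets per length, Ifnar2 exceeded Ifnar1 in every group mean, the eosinophil groups included.

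The genes whose pattern over the 12 mouse libraries was most like that of Ifnb1 were Pydc4, Mctp2 and Herc6, by the root mean square difference of centred log2(FPKM + 1) values among 14148 genes, at 0.166, 0.213 and 0.213. Pydc4 is a pyrin family gene and Herc6 an interferon-inducible ubiquitin ligase in mouse, and Herc6 had group means of 30.8 FPKM in IL-2, 4.68 with IL-33, 5.34 in wild-type and 5.17 in dGATA lung. Ifnb1 itself spread by 1.04 on that measure. The nearest genes were Cacna2d4, Tbc1d14 and Fbxw5 for Ifnar1, Mgrn1, Fam100a and Kcnk6 for Ifnar2, and Prkcd, Tcirg1 and Hpse for Irf5. For Irf3 they were Cxxc1, Gfm2 and Lysmd1, for Tbk1 Ddx46, Prpf3 and Cep110, for Jak1 Sepw1, Mfap3 and Ppp2r4, and for Tyk2 Entpd6, Ccdc94 and Mtap1s, at 0.0547 to 0.11. Because each gene was centred on its own mean, these distances describe likeness of pattern across the libraries only, and levels could differ widely.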

How the data were processed

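RNA from 18 libraries was sequenced with a stranded mRNA kit after TRIzol extraction, per the labels' protocols. The authors deposited FPKM per gene, made with Bowtie 0.12.8, TopHat 1.3.2 and Cufflinks 2.0.2 on mm10 per the submitters' processing notes. No source used here gives the build of the eosinophil tables. Mouse starts were counted from 1, which matched the RefSeq GRCm38 start for 56.2% of 20479 symbols, against 3.4% as listed. FPKM were summed over the entries of each symbol, and 116 human symbols from chromosome Y or the X-inactivation region were not used. Total depth is unknown. Relative depth (first library of a comparison = 1), from ratios of values under 0.2 FPKM, was 0.668 to 1.337 in Th2, 0.365 to 1 in eosinophil and 0.582 to 1 in lung libraries. Small RNA features took 12.11 to 21.38%, 20 to 38.39% and 4.01 to 5.13% of all FPKM, and no housekeeping gene of 10 fell below 5.12 FPKM.

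Each comparison used its 6 libraries, genes with at least 1 FPKM in at least 3, log2(FPKM + 1) and limma 3.58.1 in R 4.3.3 with a mean-variance trend. Calls needed an adjusted p (Benjamini-Hochberg, over all genes tested) under 0.05. The fit was tested on simulated data. Groups came from titles. Members, lists and alternatives were chosen with earlier results of these data known. Named genes are all members, up to 4 genes of smallest p per list, and the 3 genes nearest each member, leaving out clone, predicted and locus names. Same-numbered eosinophil libraries had correlations of 0.399, 0.356 and 0.670 after removal of group means. Libraries of number 2 and number 3 also correlated with each other across treatments, at 0.308 and 0.281. Across numbers, those of number 4 gave -0.428 to -0.506, so the values set only number 4 clearly apart. The main fits had no block. Same-numbered libraries were treated as pairs only in ratios within a number and in fits named as blocked. Blocked values are given for some genes only. Alternatives were pseudocounts of 0.1 and 0.5, other filters, rescaling to TPM, median-of-ratios scaling, no small RNA features, the highest entry per symbol, a joint fit of the 12 mouse libraries, and leaving out libraries. Promoters came from a RefSeq table with an entry for 8 of 8 mouse members. A human genome was not used here. Some genes that the naming rule covers are left out of the text. The study's design text names house dust mite, whereas the lung labels name OVA.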

Additional observations from a re-analysis of the deposited data

How the results depend on the processing

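Across the alternatives, 0 differences of members passed to the opposite side as a called change. In Th2 cells the 8 members kept their direction in all 17 alternatives. The Ifnb1 difference ran from -4.8 (pseudocount 0.1) to -2.28, and that of Irf3 fell to -0.03 under median-of-ratios scaling. In Th2 cells 64 pathway genes were called, 54 to 68 with 1 library left out, 72 in libraries 1 to 4 alone and 73 with the library set (1 to 4, or 5 and 6) as a block. Over all genes the Th2 count was 4331, 2733 to 4884 with 1 library left out, the lowest without the IL-33 library numbered 4, 5871 in libraries 1 to 4 and 5824 with the library set as a block. In eosinophils the count over all genes was 26, but 7 at a pseudocount of 0.1, 8 at a filter of 5 FPKM, 0 without small RNA features and 4 to 86 with 1 library left out, the highest without the amphiregulin library numbered 4 and 4 to 11 without any other. Of the genes tested there, 393 had an unadjusted p under 0.05. With the replicate block it was 141, and 186 without number 2, 21 without number 3 and 812 without number 4, alternatives chosen after seeing the data, as were the Th2 library sets. Pathway calls in eosinophils numbered 0, against 1 with the replicate block (SOCS1), 1 without number 2, 0 without number 3, where the SOCS1 call was lost, and 4 without number 4 (IRF4, JUN, SOCS1 and SOCS3). In lung the count over all genes was 13, with 5 to 19 when 1 library was left out (8 without the wild-type library numbered 2 or 3, 5 without the dGATA library numbered 3), 3 with the replicate block and 93 in the fit over 12 libraries. Pathway calls in lung were 0, against 0 to 1 with 1 library left out and 1 in the fit over 12 libraries, Oas1a in both cases, which passed the filter through the dGATA group alone. The cause of these changes was not tested.

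Same-numbered lung libraries had correlations of -0.286, -0.116 and -0.243, so they share only a number. The Th2 groups share no replicate number, so their blocked fit used the library sets. With all libraries of a comparison, the replicate block changed no call among the eosinophil or lung members. Depth limits Ifnb1, where 3 fragments correspond to 0.297 to 0.595 FPKM in the Th2 libraries.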
